A study of Homo sapiens with 8 samples.

Results

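The transcriptome described here is the baseline of MDA-MB-231, an established cell line from human breast cancer, without c-di-GMP. It covers the libraries labelled as vehicle control, 4 of the 8 samples of the series. These cells received phosphate-buffered saline for 24 h. The other samples received c-di-GMP, a bacterial second messenger, at 5 µM for 24 h and are not compared here. All cells grew in DMEM with fetal bovine serum and antibiotics, total RNA was isolated with TRIzol, and libraries were made with the NEBNext Ultra RNA kit. A cell line is a single population selected in culture, without the stroma, vessels and immune cells of a tumour. The labels do not say whether the replicates came from separate cultures, so the spread between them may be technical, nor whether the kit kept the strand, so genes overlapped on the opposite strand are uncertain. The series title names metastasis, the adaptor STING and PSMD3, a regulatory subunit of the proteasome.

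MDA-MB-231 is widely used as a model of triple-negative breast cancer, which lacks oestrogen receptor, progesterone receptor and amplified HER2. Epithelial cells are held together by E-cadherin and claudins and carry keratin filaments, whereas mesenchymal cells rely on vimentin and on transcription factors of the ZEB and SNAIL families that repress E-cadherin. Cytosolic DNA is sensed by cGAS, which makes a cyclic dinucleotide that binds STING, and STING then recruits the kinase TBK1 to the transcription factor IRF3. Foreign RNA is sensed by RIG-I and MDA5 through the adaptor MAVS.

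The libraries held 16864714 to 18040010 counts, so 3 counts corresponded to 0.166 to 0.178 CPM, a floor that covers counting error only. Levels are given as TPM, the deposited FPKM values rescaled so that every library has the same sum over the 18059 genes with a value. Replicate 3 had another composition than the rest. Across the genes with a mean of at least 1 TPM, its log2 levels correlated at 0.767 to 0.776 with the other libraries, which correlated among themselves at 0.946 to 0.948 (description over genes, which are not independent replicates). Values of single libraries are therefore given in the order of replicates 1, 2 and 4, with replicate 3 after them. Every mean of a gene is over replicates 1, 2 and 4, and highest, lowest and other ranks are by that mean. A gene with no value in the tables used here is described as such and is not shown to be silent. The lowest gene of the count table had 55 counts summed over all 8 samples, so genes with fewer are missing from it. Having a value there thus depends on the level of a gene, also in the c-di-GMP samples. Shares of genes with a value carry this selection.

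Among nuclear protein-coding genes, 12014 reached 1 TPM in each of replicates 1, 2 and 4. The number in single libraries was 12239, 12190 and 12209, with 10972 in replicate 3. By their mean, 50 genes stood at 1000 TPM or more and together held 10.8% of all TPM. A further 1694 genes between 100 and 1000 TPM held 39.1%, and 7203 genes between 10 and 100 TPM held 27.02%. The 3289 genes between 1 and 10 TPM held only 1.53%. The replicates were close for all but the lowest genes. The median coefficient of variation was 4.64% between 100 and 1000 TPM, 10.9% between 1 and 10 TPM and 24.8% between 0.1 and 1 TPM. The 100 genes of highest mean, mitochondrial ones included, took 29.3%, 31.95% and 30.5%, with 31.2% in replicate 3, of TPM.

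The highest nuclear mRNA in TPM, with the merged gene lengths used here, was that of TMSB10, thymosin beta 10, a small actin-binding peptide (chr2:84905625-84906675 on GRCh38). It stood at 7098, 7702 and 7860.2 TPM, with 60641 TPM in replicate 3. Close behind came ACTB, cytoplasmic actin, at 6728, 5949 and 6274 TPM, with 4320.1 TPM in replicate 3. S100A6, a calcium-binding protein, stood at 5735, 6696 and 6234 TPM, with 14526 TPM in replicate 3. In replicate 3 TMSB10 alone made up 6.06% of TPM, against 0.710% to 0.786% in the others. With the median length of GENCODE transcripts instead, the mean of TMSB10 would be 4032 TPM. ACTB at 6547, TMSB4X at 5634, S100A6 at 4792 and EEF1A1 at 4702 TPM would then exceed it. Mean counts were 140996 for EEF1A1 and 17406 for TMSB10.

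Stretches of promoter are shown for the highest nuclear genes to set sequence beside level. They run from 100 to 16 bases before the RefSeq start (GRCh38.p14, 5′ to 3′ on the gene's strand), and TATAA is in capitals where it lies between 45 and 16 bases before the start. Genes were taken in the order of their level where GENCODE v29 annotates at most 30 exonic bases in the stretch.
TMSB10, chr2:84905556-84905640, plus strand: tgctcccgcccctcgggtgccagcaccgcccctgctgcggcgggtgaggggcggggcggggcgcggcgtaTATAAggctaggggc
FTL, chr19:48965209-48965293, plus strand: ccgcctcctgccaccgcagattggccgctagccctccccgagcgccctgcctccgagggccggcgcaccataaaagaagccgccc
IGFBP4, chr17:40443350-40443434, plus strand: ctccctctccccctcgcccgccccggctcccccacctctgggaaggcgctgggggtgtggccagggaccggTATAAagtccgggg
TMSB4X, chrX:12975010-12975094, plus strand: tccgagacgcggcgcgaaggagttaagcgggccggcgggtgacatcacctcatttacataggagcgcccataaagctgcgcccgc
The last 16 bases of the TMSB10 stretch are exonic in GENCODE v29, which starts this gene at 84905625. In the other stretches shown 0 bases are exonic. TATAA began 30 bases before the RefSeq start of TMSB10, within those exonic bases, and 29 before that of IGFBP4. These letters are not in this window of FTL or TMSB4X. They are also not in that of HMGA1 or HSP90AB1, the next genes taken by the same rule, whose stretches are not shown. Over all 15504 nuclear coding genes matched to a promoter, 897 (5.79%) held TATAA on the gene's strand in the same window. The 250 bases before the starts of the genes shown held 31, 18, 24 and 21 CpG dinucleotides, with 30 for HMGA1 and 18 for HSP90AB1. The median over all matched promoters was 17. Promoters were not compared between classes of level, because only 77.8% of coding genes and 76.00% of those from 1000 TPM were matched, under the 80% such a check needs.

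The other abundant nuclear mRNAs fall into a few kinds. Translation was represented by EEF1A1, which delivers aminoacyl-tRNA to the ribosome, at 5118, 5030.1 and 5168 TPM (8624 in replicate 3), and by the ribosomal protein RPS18 at 1541, 1777 and 1633 TPM (2991 in replicate 3). The iron storage subunit FTL stood at 4954, 4903 and 4673 TPM (9356 in replicate 3). Cytoskeletal genes were TMSB4X, a second thymosin, at 4091, 4555 and 4307 TPM (16948 in replicate 3), the actin ACTG1 at 4401, 3911 and 4040.1 TPM (1515 in replicate 3), and the tubulin TUBB at 2740.5, 2643 and 2659 TPM (1159 in replicate 3). Glycolysis was represented by ENO1 at 2599, 2432 and 2486 TPM (1084 in replicate 3) and GAPDH at 2628, 2270.1 and 2401 TPM (236 in replicate 3). GAPDH, often taken as a reference gene, was 10.3-fold lower in replicate 3 than the mean of the others on this scale, on which the median gene was also lower (log2 ratio of -1.23).

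Secreted products ranked as high. IGFBP4, which binds insulin-like growth factors, stood at 4866, 4059.6 and 4563 TPM (7348 in replicate 3). CST1, a secreted inhibitor of cysteine proteases, stood at 2297, 1769 and 2504 TPM (1047 in replicate 3) and varied more among the replicates than its neighbours in rank. CYR61, a matricellular protein and target of YAP, stood at 2154, 1895 and 2016 TPM (892 in replicate 3). The chaperones HSP90AB1 and CALR had means of 3167 ± 51.3 TPM (SD, n = 3, with 2811 in replicate 3) and 2433 ± 75.8 TPM (SD, n = 3, with 734 in replicate 3). HMGA1, an architectural chromatin protein, stood at 3848, 3192 and 3239 TPM (1738 in replicate 3). The others of the 20 were CLIC1 at 1766 TPM (2617 in replicate 3), YBX1 at 1699 TPM (1006 in replicate 3) and the early response gene IER3 at 1661 TPM (1826 in replicate 3), as means. The order depends on the measure. Ranked by counts instead of per length, 12 of the 20 stayed among the 20 highest, and in replicate 3 alone 7 did.

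**Figure D1:**
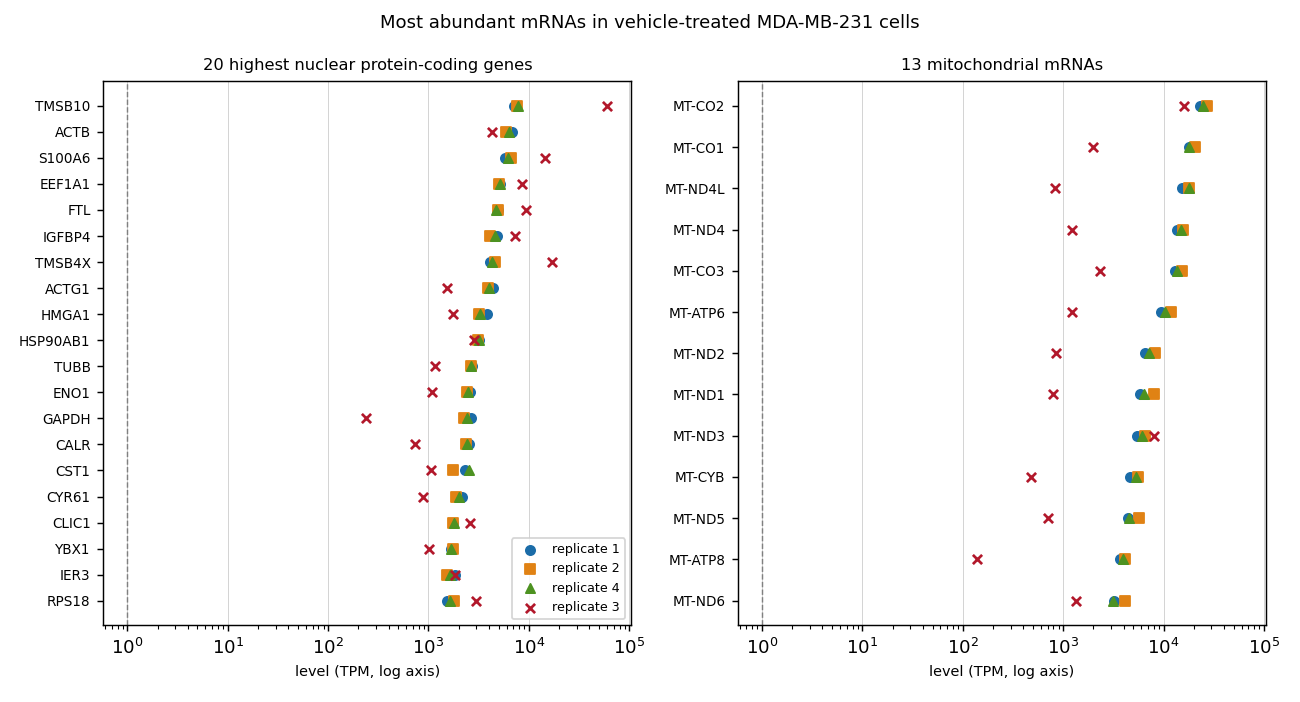
Level in TPM (horizontal log axis) of the 20 highest nuclear protein-coding genes (left) and the 13 mitochondrial mRNAs (right), each point 1 vehicle library and the dashed line 1 TPM. Replicates 1, 2 and 4 lie together in every row, whereas replicate 3 (crosses) lies to the right for TMSB10 at 60641 TPM and to the left for GAPDH at 236 TPM.

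The mitochondrial genome encodes 13 subunits of oxidative phosphorylation, and all 13 mRNAs had values. Their share of counts was 2.91%, 3.63% and 3.15%, with 0.945% in replicate 3. Their share of TPM, a measure per length in which short mRNAs weigh more, was 12.6%, 15.1% and 13.6%, with 3.57% in replicate 3. Of the cytochrome c oxidase subunits, MT-CO2 was the highest of the 13, at 22879, 27148 and 24452 TPM, with 15837 TPM in replicate 3. MT-CO1 stood at 17747, 20802 and 18119 TPM (2001 in replicate 3) and MT-CO3 at 13132, 15293 and 13542 TPM (2322 in replicate 3). MT-ATP6 of the ATP synthase stood at 10585 TPM (1234 in replicate 3) and MT-CYB of complex III at 5171 TPM (478 in replicate 3). Complex I subunits ranged from MT-ND4L at 17086 ± 1578 TPM (SD, n = 3, with 825 in replicate 3) to MT-ND6, encoded on the other strand, at 3474 ± 538 TPM (SD, n = 3, with 1351 in replicate 3). Between them lay MT-ND4 at 14763 TPM (1212 in replicate 3), MT-ND2 at 7267 TPM (846 in replicate 3), MT-ND1 at 6741 TPM (788 in replicate 3) and MT-ND5 at 4886 TPM (709.9 in replicate 3). MT-ND4L and MT-ND4, and MT-ATP8 and MT-ATP6, overlap on the genome, so their levels are not independent. In replicate 3 the mRNAs did not keep their ratios. MT-ND3 stood at 5388, 6471 and 6083 TPM, with 7959 TPM in replicate 3, whereas MT-ATP8 stood at 3646, 4167 and 3962 TPM, with 138 TPM in replicate 3. Of the 13, 11 were at least 2-fold lower in replicate 3 on the TPM scale and 10 with CPM scaled by TMM factors. The background is that 55.9% of all genes with a mean of at least 1 TPM were lower by that fold on the TPM scale and 27.0% with TMM.

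Outside protein-coding genes, the largest class was mitochondrial rRNA, with 1.90% ± 0.156 (SD, n = 3) of TPM and 0.869% in replicate 3. MT-RNR2, the large ribosomal RNA, stood at 14898, 17540.0 and 17048 TPM, with 5632 TPM in replicate 3, and MT-RNR1, the small one, at 2310.5, 2636 and 2486 TPM, with 3055 TPM in replicate 3. Mitochondrial tRNAs, which are very short, took 1.40% ± 0.0867 (SD, n = 3) of TPM and 0.918% in replicate 3. Their share of counts was only 0.0255%, with 0.0235% in replicate 3. They were led by MT-TN at 5502, 6231 and 5966 TPM (3469 in replicate 3), MT-TC at 3568, 3927 and 3706 TPM (3955 in replicate 3) and MT-TP at 2623, 3058 and 3261 TPM (562 in replicate 3). These genes are 66 to 73 bases long, so few counts give a high TPM. Processed pseudogenes took 1.64% ± 0.0356 (SD, n = 3) of TPM and 4.49% in replicate 3. Long intergenic RNAs took 0.571% ± 0.0122 of TPM, with 0.745% in replicate 3. By counts the order of these 2 classes was reversed in replicates 1, 2 and 4. Their mean shares there were 0.305% for processed pseudogenes and 0.406% for long intergenic RNAs. In replicate 3 the shares of counts were 0.888% and 0.507%. Of the 10 highest non-coding genes of the nuclear genome, 8 are copies of other genes: MTATP6P1, a nuclear copy of mitochondrial sequence, at 1037, 1287 and 1222 TPM (188 in replicate 3), then EEF1A1P5, RPL9P9, RPS28P7, TMSB4XP8, AC116533.1, AC005912.1 and AC022149.1. Reads of such copies can belong to the parent gene, so their values are uncertain. RPL9P9 stood at 878, 963 and 957 TPM (12999 in replicate 3). GPX1, glutathione peroxidase, is annotated as a polymorphic pseudogene and stood at 744, 675 and 686 TPM (2021 in replicate 3).

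The highest long non-coding RNA was NORAD, which binds Pumilio proteins, at 408, 421 and 440.1 TPM, with 235 TPM in replicate 3. All 25 listed long non-coding RNAs with a value were at or above 1 TPM, of 30 in the list. SNHG8, a host of small nucleolar RNA, stood at 99.1, 114 and 112 TPM, with 1115 TPM in replicate 3. Among other hosts, SNHG5 stood at 81.4, 92.9 and 87.2 TPM (783 in replicate 3), ZFAS1 at 29.96, 35.96 and 33.1 TPM (315 in replicate 3) and GAS5 at 84.5, 94.9 and 94.6 TPM (189.9 in replicate 3). MALAT1, a nuclear RNA of splicing speckles, stood at 97.6, 119.7 and 98.7 TPM (132 in replicate 3) and NEAT1, the scaffold of paraspeckles, at 77.01, 85.4 and 79.1 TPM (44.5 in replicate 3). The lowest members were LINC-PINT at 1.61 TPM (2.15 in replicate 3), MIR17HG at 3.11 TPM (5.90 in replicate 3), CRNDE at 6.38 TPM (20.9 in replicate 3) and LUCAT1 at 6.63 TPM (1.70 in replicate 3). H19, HOTAIR, MEG3, MIR31HG and CCAT1 had no value here.

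Most listed mesenchymal markers were present, as were most of the epithelial markers described below. Of all nuclear coding genes with a value, 93.1% reached 1 TPM by their mean and 13.3% reached 100 TPM. Only 65.9% of annotated nuclear coding genes had a value. The shares of 93.1% and 13.3% therefore stand beside list members with a value, here and below, and not beside whole lists. Of 25 mesenchymal markers, 21 were at or above 1 TPM and 14 at or above 100 TPM, with a median of 147 TPM over the 23 with a value. After CYR61 the highest were the galectin LGALS1 at 1417, 1545 and 1531 TPM (2696 in replicate 3), the calcium-binding S100A4 at 1231, 1349 and 1398 TPM (7931 in replicate 3), and AXL, a receptor kinase, at 998, 902 and 964 TPM (144 in replicate 3). MSN, which links actin to the membrane, stood at 708, 709 and 701 TPM (69.1 in replicate 3) and FOSL1, a subunit of AP-1, at 624, 569 and 554 TPM (140.5 in replicate 3).

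VIM, the intermediate filament that defines mesenchymal cells, stood at 482, 479 and 502 TPM, with 761 TPM in replicate 3. Its mean was 488 ± 12.7 TPM (SD, n = 3), and with the median length of its GENCODE transcripts in place of the longer merged model it would be 719 TPM. CD44, the hyaluronan receptor, stood at 334, 333 and 328 TPM (186 in replicate 3). Of the repressors of E-cadherin, ZEB1 stood at 30.7, 29.96 and 32.9 TPM (5.91 in replicate 3) and SNAI2 at 28.3, 28.8 and 28.3 TPM (11.2 in replicate 3). SNAI1 stood at 3.38, 2.34 and 2.09 TPM (0.474 in replicate 3) and ZEB2 at 2.35, 2.47 and 2.77 TPM (0.383 in replicate 3). N-cadherin, CDH2, was low at 0.486, 0.921 and 0.801 TPM (0.0968 in replicate 3), as was SPARC at 0.589, 0.472 and 0.137 TPM (0.232 in replicate 3). TWIST1 and TWIST2 had no value here.

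Epithelial genes were present beside them, with E-cadherin near 1 TPM. Of 27 epithelial markers, 22 were at or above 1 TPM and 6 at or above 100 TPM. CDH1 stood at 1.24, 1.38 and 1.35 TPM, with 0.466 TPM in replicate 3, the lowest mean of the 22 epithelial markers with a value, although CRB3 was lower in replicates 1 and 2 and TJP3 in replicate 2. The simple keratins were high, with KRT19 at 684, 582 and 635 TPM, with 1083 TPM in replicate 3. KRT8 stood at 416, 388 and 392 TPM (406 in replicate 3), KRT7 at 412, 367 and 379 TPM (206 in replicate 3) and KRT18 at 342, 306 and 328 TPM (361 in replicate 3). SPINT2, an inhibitor of membrane serine proteases, stood at 211, 184 and 203 TPM (312 in replicate 3) and the desmosomal DSP at 122, 114 and 126 TPM (15.96 in replicate 3). The claudins CLDN4 and CLDN7 stood at 98.5 ± 5.16 TPM (SD, n = 3, with 95.9 in replicate 3) and 78.5 ± 3.98 TPM (SD, n = 3, with 69.7 in replicate 3). CD24, a mucin-type adhesion molecule, stood at 33.6, 31.3 and 36.8 TPM (68.1 in replicate 3) and the adhesion molecule EPCAM at 18.1, 21.3 and 20.7 TPM (41.7 in replicate 3). CD44 thus exceeded CD24 in each of the 4 libraries. At the low end stood ST14 at 4.205 TPM (2.28 in replicate 3), TJP3 at 1.56 TPM (0.720 in replicate 3) and CRB3 at 1.40 TPM (0.602 in replicate 3). The epithelial regulators ESRP1, GRHL2, OVOL1 and OVOL2, and RAB25, had no value here, whereas ESRP2 stood at 10.7 ± 1.18 TPM (SD, n = 3, with 1.44 in replicate 3).

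ESR1 and PGR, the oestrogen and progesterone receptors, and their cofactor FOXA1 had no value here. ERBB2, which encodes HER2, stood at 43.4, 37.5 and 38.1 TPM (12.3 in replicate 3) and its partner ERBB3 at 3.83, 3.69 and 4.99 TPM (1.84 in replicate 3). Other luminal regulators were present. SPDEF, an ETS factor of secretory epithelium, stood at 183, 140.5 and 153 TPM (92.8 in replicate 3), XBP1 of the unfolded protein response at 98.6, 94.97 and 103 TPM (112 in replicate 3) and GATA3 at 16.4, 15.1 and 15.9 TPM (12.8 in replicate 3). PRLR, TFF3 and MYB were at means of 1.54 TPM (0.207 in replicate 3), 0.682 TPM (2.60 in replicate 3) and 0.408 TPM (1.37 in replicate 3).

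The basal keratins that mark the outer layer of the mammary duct had no value here or were low. KRT5, KRT6A, KRT6B, KRT14 and KRT16 had no value, and KRT17 stood at 1.96, 0.662 and 0.985 TPM (1.99 in replicate 3). TP63, the basal lineage factor, stood at 1.06, 1.06 and 0.591 TPM (0.514 in replicate 3), and P-cadherin, CDH3, at 0.316, 0.199 and 0.388 TPM (0.0256 in replicate 3). ACTA2, smooth muscle actin, stood at 2.22 TPM (0.376 in replicate 3). Surface and matrix genes of the same list were high: CAV1 of caveolae at 509.8 ± 20.9 TPM (SD, n = 3, with 157 in replicate 3) and the integrin ITGB4 at 162 ± 14.3 TPM (SD, n = 3, with 24.5 in replicate 3). EGFR stood at 138, 126 and 132 TPM, with 19.8 TPM in replicate 3. NGFR, the low-affinity neurotrophin receptor, stood at 117, 95.3 and 101 TPM (32.6 in replicate 3) and CAV2 at 68.8 ± 3.28 TPM (SD, n = 3, with 49.5 in replicate 3).

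**Figure D2:**
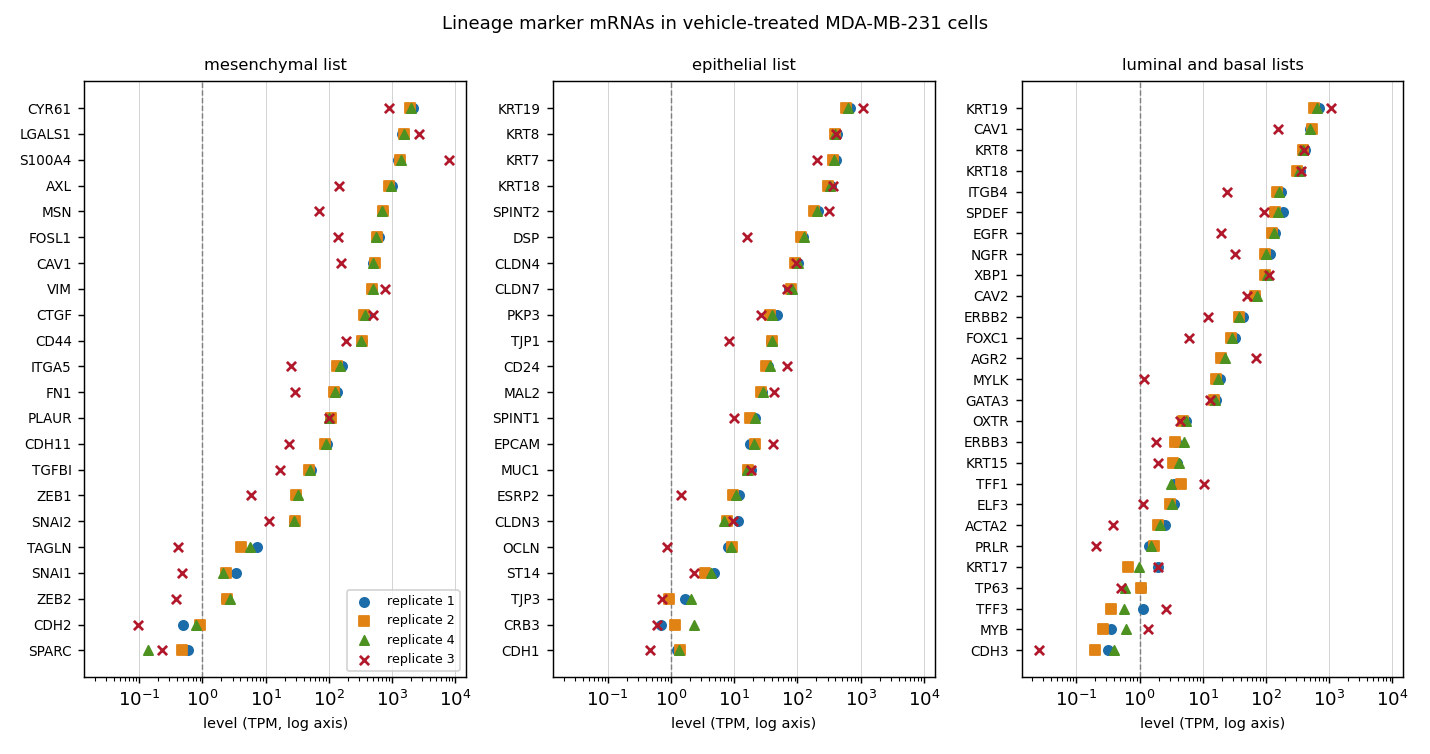
Level in TPM (horizontal log axis) of the reported markers with a value in the mesenchymal, epithelial, and luminal and basal lists, each point 1 vehicle library and the dashed line 1 TPM. VIM lies near 482 TPM and CDH1 near 1.24 TPM in replicate 1, and the keratins KRT19, KRT8, KRT7 and KRT18 lie at or above 306 TPM in replicates 1, 2 and 4.

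Few markers of other cell types were at or above 10 TPM. In bulk RNA of a cell line, a marker low in all cells and one high in few of them cannot be told apart. Of 23 leukocyte genes, 3 had a value: CD14, a coreceptor for lipopolysaccharide, at 35.98, 24.7 and 26.5 TPM (29.2 in replicate 3), CSF1R at 2.80, 2.58 and 2.86 TPM (0.775 in replicate 3) and CORO1A at 2.65, 1.87 and 1.72 TPM (0.689 in replicate 3). PTPRC, the pan-leukocyte phosphatase CD45, had no value here, nor had CD3E. Of 11 endothelial genes 5 were at or above 1 TPM, led by PECAM1 at 4.47 ± 0.361 TPM (SD, n = 3, with 4.16 in replicate 3) and KDR at 4.43 ± 0.0518 TPM (SD, n = 3, with 1.14 in replicate 3), which lay within that spread, while CDH5 stood at 0.143 ± 0.0965 TPM (SD, n = 3, with 0.0788 in replicate 3) and VWF had no value. Of 11 fibroblast genes 3 were, the highest COL1A1 at 8.06 ± 0.804 TPM (SD, n = 3, with 0.586 in replicate 3), and DCN and COL3A1 had no value. Of 7 adipocyte genes, PPARG stood at 21.1 ± 1.86 TPM (SD, n = 3, with 10.5 in replicate 3) and LPL at 1.60 ± 0.321 TPM (SD, n = 3, with 0.948 in replicate 3). Of 13 melanocyte and neural genes, 8 had a value, with 6 at or above 1 TPM and 2 at or above 10 TPM. These 2 were the neural enolase ENO2 at 142, 136 and 134 TPM (55.8 in replicate 3) and the melanocyte regulator MITF. MITF stood at 21.6, 22.00 and 21.4 TPM (8.81 in replicate 3), and TYR, DCT and SOX10 had no value here. Among 28 genes of other organs, 3 had a value, myoglobin MB at 7.67, 6.31 and 8.12 TPM (11.2 in replicate 3), POU5F1 at 2.49, 2.22 and 2.97 TPM (0.828 in replicate 3) and APOA1 at 0.768, 1.31 and 0.773 TPM (4.15 in replicate 3).

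Genes normally limited to the germ line were partly present. Of 26 cancer-testis genes 9 had a value and 7 were at or above 1 TPM. SPANXB1, a sperm nuclear protein, stood at 179.7, 207 and 175 TPM, with 719 TPM in replicate 3. PAGE5 stood at 15.3, 16.5 and 21.04 TPM (49.03 in replicate 3), MAGEC2 at 11.7, 10.6 and 12.6 TPM (4.49 in replicate 3) and MAGEC1 at 12.2, 11.3 and 10.2 TPM (2.69 in replicate 3). XAGE1B varied from 16.5 TPM in replicate 4 to 83.1 TPM in replicate 2, and its near-identical neighbour XAGE1A from 11.1 to 22.3 TPM, so their split is uncertain. SSX1 stood at 2.76 TPM (0.246 in replicate 3), DDX43 at 0.685 TPM (0.0569 in replicate 3) and MAGEA6 at 0.659 TPM (0.600 in replicate 3). MAGEA1, MAGEA3, CTAG1B and PRAME had no value here.

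Among 58 receptor tyrosine kinases, 39 had a value, 31 were at or above 1 TPM and 4 at or above 100 TPM. AXL, the receptor for GAS6, led at 955 ± 48.8 TPM (SD, n = 3), followed by the ephrin receptor EPHA2 at 654 ± 75.8 TPM (SD, n = 3), the hepatocyte growth factor receptor MET at 147 ± 5.46 TPM (SD, n = 3) and EGFR at 132 ± 5.72 TPM (SD, n = 3). Each of these stood above the next in all of replicates 1, 2 and 4, and replicate 3 kept that order at 144, 96.9, 41.4 and 19.8 TPM. PTK7, a pseudokinase of planar polarity, stood at 89.8, 74.6 and 83.7 TPM (11.97 in replicate 3) and EPHB4 at 69.4, 55.1 and 63.7 TPM (35.2 in replicate 3). ERBB2 ranked eleventh by its mean, and EPHB2 just above it did not exceed it in every replicate. The lowest with a value were EPHB1 at 0.426 TPM (0.115 in replicate 3), AATK at 0.350 TPM (0.180 in replicate 3), EPHA5 at 0.322 TPM (0.0487 in replicate 3) and ALK at 0.176 TPM (0.0651 in replicate 3). ERBB4, FGFR2, PDGFRA, KIT and RET were among the 19 with no value here. The levels of EGFR and ERBB2 rest on long gene models. With the median transcript length they would be 229.6 and 50.3 TPM.

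Nuclear receptors were led by orphan and metabolic members. NR2F2, also called COUP-TFII, stood at 173, 149.7 and 169 TPM (71.95 in replicate 3), NR2F6 at 144, 110.5 and 126 TPM (84.9 in replicate 3) and the retinoid X receptor RXRB at 122, 116 and 113 TPM (18.01 in replicate 3). NR2F6 and RXRB changed order between replicates. ESRRA, a regulator of mitochondrial genes, had a mean of 103 ± 8.43 TPM (SD, n = 3, with 11.7 in replicate 3), the liver X receptor NR1H2 one of 96.6 ± 10.2 TPM (SD, n = 3, with 54.6 in replicate 3) and PPARD one of 92.9 ± 5.66 TPM (SD, n = 3, with 16.3 in replicate 3). NR3C1, the glucocorticoid receptor, stood at 62.3, 63.4 and 69.1 TPM, with 13.3 TPM in replicate 3. Of 48 receptors 34 had a value and 26 were at or above 1 TPM. NR4A3, RORB and ESR2, the second oestrogen receptor, were at 0.551 TPM (0.152 in replicate 3), 0.417 TPM (0 in replicate 3) and 0.355 TPM (0.0342 in replicate 3).

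Of 56 receptors for cytokines, TGF-beta family members and death ligands, 49 had a value and 44 were at or above 1 TPM. The highest were the death receptor TNFRSF21 at 360.0, 315 and 334 TPM (87.6 in replicate 3), TGFBR2 at 333, 318 and 323 TPM (65.04 in replicate 3) and TNFRSF12A, the receptor for TWEAK, at 332, 317 and 309 TPM (45.1 in replicate 3). IL6ST, the signalling chain shared by the interleukin-6 family, stood at 212 ± 13.8 TPM (SD, n = 3, with 31.2 in replicate 3), the TRAIL receptor TNFRSF10B at 177 ± 7.45 TPM (SD, n = 3, with 25.7 in replicate 3) and OSMR at 144 ± 2.07 TPM (SD, n = 3, with 19.8 in replicate 3). IL6R, the ligand-binding partner of IL6ST, stood at 0.916, 0.835 and 0.853 TPM (0.124 in replicate 3). Of the chains of the type I interferon receptor, IFNAR1 was counted at 44.05, 47.8 and 48.1 TPM (21.5 in replicate 3). IFNAR2 was counted at 1.04, 1.26 and 1.19 TPM (1.07 in replicate 3). Loss of reads to gene models that overlap on the same strand was not tested. IL20RB, IL20RA, IL10RB and IL18R1 also had means under 1 TPM.

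**Figure D3:**
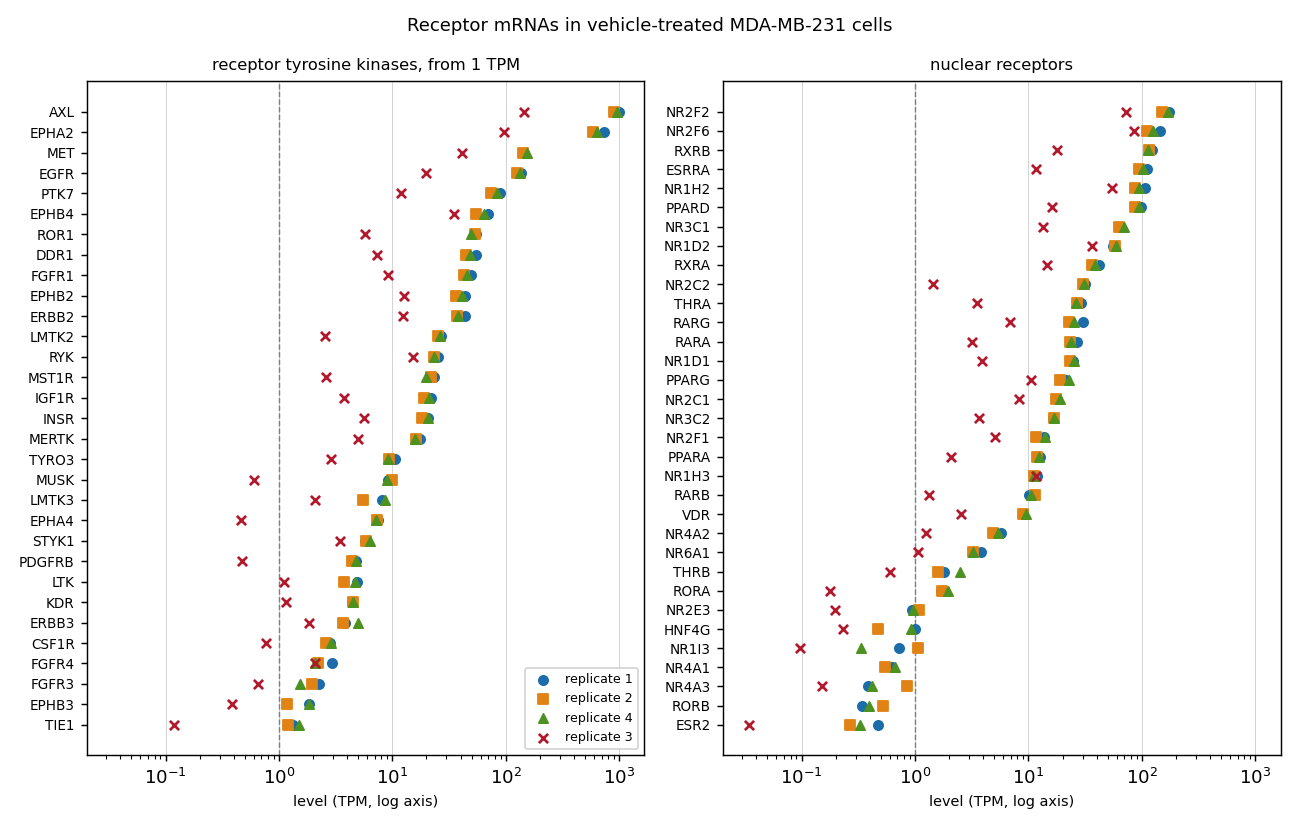
Level in TPM (horizontal log axis) of receptor tyrosine kinases with a mean of at least 1 TPM (left) and of the reported nuclear receptors with a value (right), each point 1 vehicle library and the dashed line 1 TPM. Replicate 3 is not drawn for NR4A1 and RORB, where it is at 0, and lies left of the other points for AXL at 144 TPM and EGFR at 19.8 TPM.

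The machinery that senses DNA and cyclic dinucleotides was present from sensor to transcription factor. Of its 28 genes 26 had a value and 25 were at or above 1 TPM, and these 25 were also at or above 10 TPM. CGAS, the enzyme that makes cGAMP on DNA, stood at 59.00, 50.8 and 59.9 TPM, with 39.95 TPM in replicate 3. TMEM173, which encodes STING, stood at 39.6, 32.4 and 33.1 TPM, with 10.3 TPM in replicate 3. Its mean of 35.00 ± 3.97 TPM (SD, n = 3) did not lie beyond the spread of that of MRE11, a DNA break sensor, at 32.9 ± 1.56 TPM (SD, n = 3, with 9.91 in replicate 3). IFI16, a nuclear DNA sensor, stood at 75.4, 72.2 and 83.8 TPM, with 30.8 TPM in replicate 3. AIM2, which assembles an inflammasome on DNA, stood at 14.4, 15.7 and 15.7 TPM (4.29 in replicate 3).

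Downstream, the kinase TBK1 stood at 24.04, 24.4 and 25.1 TPM, with 4.83 TPM in replicate 3. Its relative IKBKE stood higher, at 81.6, 70.9 and 71.4 TPM, with 19.6 TPM in replicate 3. IRF3 stood at 70.5, 61.8 and 67.6 TPM, with 99.1 TPM in replicate 3, so that its order against TBK1 was the same in every library. IRF7 stood at 28.2, 22.96 and 25.1 TPM (29.8 in replicate 3). The highest members were genes with other main tasks: the Ku subunits XRCC6 at 481 ± 15.7 TPM (SD, n = 3, with 788 in replicate 3) and XRCC5 at 237 ± 4.28 TPM (SD, n = 3, with 279 in replicate 3), the ubiquitin ligase RNF5 at 284 ± 8.12 TPM (SD, n = 3, with 216 in replicate 3), the helicase DHX9 at 214 ± 9.44 TPM (SD, n = 3, with 112 in replicate 3) and the chromatin protein HMGB1 at 148 ± 2.49 TPM (SD, n = 3, with 122 in replicate 3). TMEM203, a membrane protein described as a STING partner, stood at 142, 121 and 123 TPM (282 in replicate 3). ENPP1, which hydrolyses cGAMP, stood at 25.01, 23.6 and 26.97 TPM (7.17 in replicate 3), and SLC19A1, the reduced folate transporter, at 0.482, 0.767 and 0.793 TPM (0.0639 in replicate 3). ZBP1 and TREX1 had no value here. PSMD3 stood at 189.9, 174 and 178 TPM, with 58.7 TPM in replicate 3, and 37 of 39 annotated proteasome subunit genes were at or above 1 TPM, with a median of 111 TPM.

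All 22 genes of RNA sensing were at or above 1 TPM, from 2.005 to 210.3 TPM. DDX58, which encodes RIG-I, stood at 89.2, 92.1 and 95.9 TPM (64.7 in replicate 3), and MAVS at 100.5, 89.4 and 91.6 TPM (57.2 in replicate 3). MAVS, DDX58 and TRIM25, the ligase that modifies RIG-I, did not differ beyond their spread. IFIH1, which encodes MDA5, stood at 13.8, 14.7 and 13.8 TPM (7.16 in replicate 3). Genes that interferon induces in many cells were present in these untreated cells, IFIT3 at 214, 219 and 198 TPM (37.3 in replicate 3), IFIT2 at 108, 109 and 99.8 TPM (46.7 in replicate 3) and IFIT1 at 57.1, 60.7 and 59.4 TPM (53.1 in replicate 3). DDX3X and ADAR, helicase and RNA editing enzyme, had means of 163 ± 6.001 TPM (SD, n = 3, with 27.3 in replicate 3) and 126 ± 3.79 TPM (SD, n = 3, with 28.9 in replicate 3). Among the lowest were OAS1 at 2.005 TPM (0.549 in replicate 3) and DHX58 at 9.96 TPM (0.998 in replicate 3). None of the 17 type I interferon genes annotated, and none of the 3 interferon lambda genes, had a value here.

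TLR4, which recognises lipopolysaccharide and had the highest mean of the Toll-like receptors, stood at 15.5, 16.3 and 16.3 TPM, with 6.43 TPM in replicate 3. TLR2 stood at 13.5, 12.6 and 13.97 TPM (10.1 in replicate 3) and TLR3, the receptor for double-stranded RNA in endosomes, at 2.96, 3.79 and 3.50 TPM (0.998 in replicate 3). TLR5 and TLR7 were at 0.963 TPM (0.0823 in replicate 3) and 0.736 TPM (0.460 in replicate 3), and TLR8, TLR9 and TLR10 had no value here. The adaptor MYD88 stood at 42.9, 43.6 and 42.3 TPM (9.37 in replicate 3) and the kinase IRAK1 at 313, 258 and 272 TPM (38.5 in replicate 3). LY96, the partner of TLR4, stood at 6.13, 7.17 and 10.2 TPM (26.1 in replicate 3). UNC93B1, which carries TLR3 and some other Toll-like receptors to endosomes, TAB2 and TRAF3 had means of 65.03 ± 5.64 TPM (SD, n = 3, with 24.8 in replicate 3), 60.8 ± 4.42 TPM (SD, n = 3, with 42.7 in replicate 3) and 47.8 ± 3.20 TPM (SD, n = 3, with 14.3 in replicate 3).

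Inflammasome genes were lower. Of 31 in the list 25 had a value, 19 were at or above 1 TPM and 0 at or above 100 TPM. The pore-forming GSDMD led at 55.1, 52.5 and 54.1 TPM (89.1 in replicate 3). The cytokines IL1B, IL18 and IL1A stood at 46.2 ± 1.77 TPM (SD, n = 3, with 15.3 in replicate 3), 25.8 ± 1.95 TPM (SD, n = 3, with 46.5 in replicate 3) and 24.2 ± 0.595 TPM (SD, n = 3, with 7.45 in replicate 3). The adaptor PYCARD stood at 5.53, 7.74 and 4.90 TPM (24.7 in replicate 3) and CASP1 at 4.50, 3.70 and 3.27 TPM (6.48 in replicate 3). NOD2, NLRP11, NLRC4, NLRP14, NLRC3 and NAIP had means under 1 TPM. Among chemokines, 13 of 41 had a value. The neutrophil attractant CXCL8 stood at 536, 619.7 and 609.5 TPM (813 in replicate 3) and CXCL1 at 481, 506 and 442 TPM (1114 in replicate 3). CCL5 and CXCL10, targets of interferon signalling, stood at 1.88, 1.51 and 1.02 TPM (0.317 in replicate 3) and 5.77, 5.29 and 4.49 TPM (5.84 in replicate 3).

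**Figure D4:**
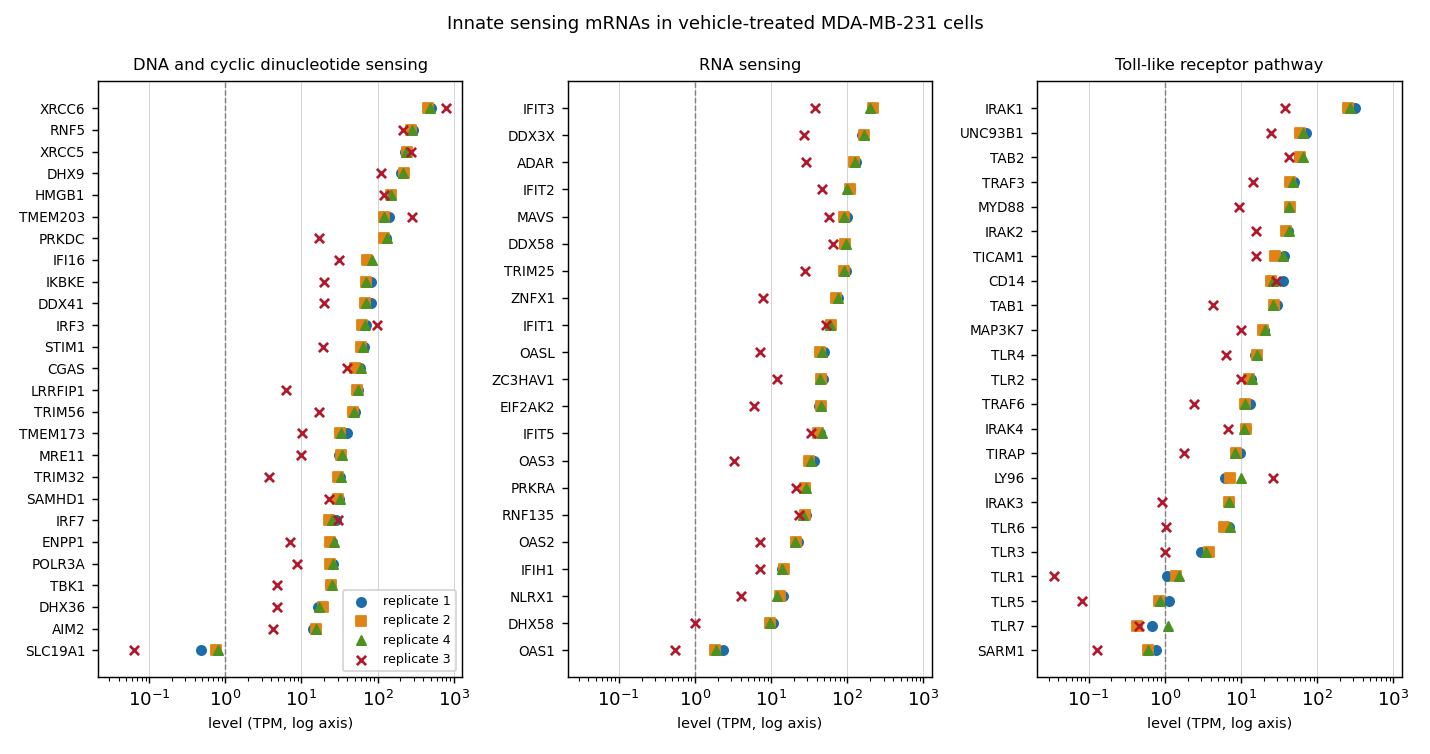
Level in TPM (horizontal log axis) of the reported genes with a value in the lists of DNA and cyclic dinucleotide sensing, RNA sensing and the Toll-like receptor pathway, each point 1 vehicle library and the dashed line 1 TPM. TMEM173 lies at 32.4 to 39.6 TPM and CGAS at 50.8 to 59.9 TPM in replicates 1, 2 and 4, with replicate 3 at 10.3 and 39.95 TPM. The ratio of replicate 3 to the others changes sign with the scaling for CGAS.

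All 28 proliferation genes were at or above 1 TPM. Cyclin D1, CCND1, was the highest at 674, 643 and 651 TPM (173 in replicate 3), followed by the mitotic activator CDC20 at 476, 442 and 452 TPM (113 in replicate 3) and UBE2C at 446, 459.8 and 436 TPM (1059.7 in replicate 3). MKI67, the proliferation antigen Ki-67, stood at 274, 265 and 256 TPM, with 25.9 TPM in replicate 3. CCND2, the lowest, stood at 1.99, 1.999 and 2.55 TPM (2.37 in replicate 3). Among inhibitors and tumour suppressors, CDKN1A, which encodes p21, stood at 180.5, 156 and 169.5 TPM (72.9 in replicate 3). RB1 stood at 49.8, 52.96 and 51.02 TPM (3.81 in replicate 3). The lowest were BRCA2 at 12.6 TPM (3.75 in replicate 3), NF2 at 9.06 TPM (1.56 in replicate 3) and NF1 at 6.81 TPM (0.777 in replicate 3).

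CDKN2A, CDKN2B and MTAP, neighbours on the short arm of chromosome 9, had no value here. CDKN2A, which encodes the inhibitors p16 and ARF, lies at chr9:21967753-21995301 on GRCh38. It sits within a run of 25 consecutive protein-coding genes without a value, from 20999515 to 24545946 on chromosome 9. Of these genes 16 are interferon genes, and the run also holds KLHL9, DMRTA1 and ELAVL2. The nearest genes with a value on either side of the run differed widely in level. FOCAD stood at 1.72, 1.47 and 1.25 TPM (0.398 in replicate 3) and MLLT3 at 6.62, 6.45 and 6.85 TPM (4.13 in replicate 3). ACER2 stood at 1.47, 1.30 and 2.75 TPM (0 in replicate 3), RPS6 at 539, 575 and 564 TPM (2212 in replicate 3) and DENND4C at 14.3, 14.3 and 16.04 TPM (1.26 in replicate 3). Beyond the run, TUSC1 stood at 29.9, 22.8 and 27.4 TPM (42.6 in replicate 3), CAAP1 at 32.96, 33.4 and 35.5 TPM (13.6 in replicate 3), PLAA at 47.3 TPM (27.1 in replicate 3), IFT74 at 14.5 TPM (16.2 in replicate 3) and MOB3B at 1.52 TPM (0.293 in replicate 3). Such runs were not rare: 51 runs of at least 10 neighbouring coding genes without a value were counted, so the length of this run alone does not set it apart.

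Of all 19938 annotated nuclear coding genes, 13139 (65.9%) had a value, and several families known from other tissues were far below that share. Of 386 annotated olfactory receptors 3 had a value, and of 94 keratin-associated proteins of hair 1 had one, KRTAP2-3 at 5.75, 11.4 and 7.05 TPM (25.02 in replicate 3). None of 45 defensins, 10 globins, 15 kallikreins or 29 cornified envelope genes had a value. By contrast 80 of 82 ribosomal protein genes and 449 of 514 numbered zinc finger genes had one. The median level was 376 TPM for the former and 7.82 TPM for the latter. Of 55 keratins 11 had a value, among them KRT80 at 243, 198 and 220.5 TPM (41.8 in replicate 3) and the hair keratin KRT81 at 90.9, 73.1 and 84.9 TPM (148 in replicate 3). Of 39 HOX genes 11 had one. HOXB9 stood at 34.5, 33.2 and 34.5 TPM (9.35 in replicate 3), and each of the other HOX genes was below it in all of replicates 1, 2 and 4.

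The tables annotate 1091 genes as transcription factors, of which 1031 were at or above 1 TPM and 67 at or above 100 TPM. These are 94.5% and 6.14%, beside 93.1% and 13.3% of all nuclear coding genes with a value. Of the 10 highest, 6 are basic leucine zipper factors. Beside FOSL1 these were JUND at 479, 369 and 429.9 TPM (592 in replicate 3), JUN at 333, 273 and 309.8 TPM (57.5 in replicate 3), ATF4 of the integrated stress response at 302, 294 and 284 TPM (331 in replicate 3), FOSL2 at 312, 266 and 282 TPM (53.2 in replicate 3) and NFE2L1, a regulator of proteasome genes, at 292, 269 and 271 TPM (52.7 in replicate 3). HMGA1, YBX1 and CNBP were also among the 10. Basic leucine zipper factors had a median of 37.1 TPM over 44 genes, the C2H2 zinc fingers 7.92 TPM over 521 and the homeobox genes 3.68 TPM over 66, as a description.

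Replicate 3 was set against the mean of the other vehicle libraries, with no test since it is 1 library. On the TPM scale 9.57% of 16386 genes were at least 2-fold higher in it and 55.9% at least 2-fold lower, around a median log2 ratio of -1.23. With TMM factors these shares were 24.4% and 27.0%, around a median of -0.09. Higher calls thus made up 14.6% of all calls by TPM and 47.5% by TMM. Gene length moved with the ratio on either scale. For coding genes of at most 1000 bases the median log2 ratio was 1.11 by TPM and 2.13 by TMM, and for those over 8000 bases it was -1.85 and -0.72. The part of length in the difference of any one gene was not tested.

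**Figure D5:**
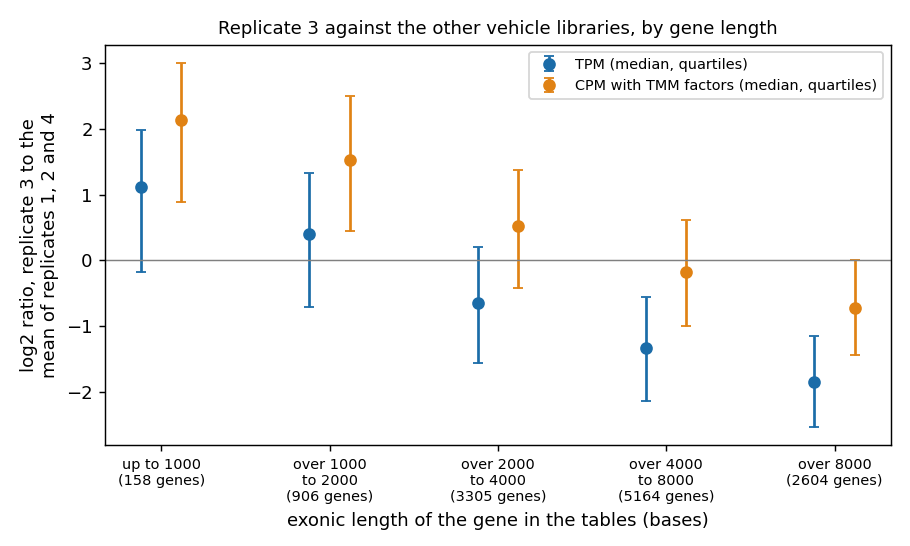
Median and quartiles (points and bars) of the log2 ratio of vehicle replicate 3 to the mean of replicates 1, 2 and 4, for nuclear protein-coding genes with a mean of at least 1 TPM, in 5 classes of exonic length and on 2 scales. The medians fall from 1.11 in the shortest class to -1.85 in the longest by TPM, and from 2.13 to -0.72 with TMM factors.

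The lists followed this to unequal degrees, read against the shares given above. Receptor tyrosine kinases had 0 higher and 27 lower of 31 on the TPM scale, and 0 and 14 after TMM scaling. Nuclear receptors had 0 higher and 22 lower of 26 on the TPM scale, and 1 and 12 after TMM scaling. Epithelial markers had 2 higher and 8 lower of 22 on the TPM scale, and 10 and 4 after TMM scaling, and long non-coding RNAs 9 higher and 4 lower of 25 on the TPM scale, and 15 and 2 after TMM scaling. Their median log2 ratios by TMM were -0.81, -0.82, 0.76 and 1.28, beside -0.09 for all genes. DNA and cyclic dinucleotide sensing genes had 1 higher and 15 lower of 25 on the TPM scale, and 5 and 4 after TMM scaling. Of genes named above, CGAS, DDX58, MAVS, CD44 and ACTB changed the sign of their ratio between scales, whereas TMEM173, TBK1, EGFR and AXL were lower, and IRF3 and TMSB10 higher, in replicate 3 on each of the 4 scales tried. These scales are not separate checks. TMM factors, DESeq2 size factors and deposited FPKM gave nearly equal log2 ratios, for TMEM173 -0.59, -0.56 and -0.61, beside -1.76 by TPM.

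Among coding genes from 10 TPM, the 10 largest ratios of replicate 3 to the others included several small subunits of respiratory and other complexes. PARL, a mitochondrial rhomboid protease, stood at 9.75, 9.60 and 12.04 TPM, with 222 TPM in replicate 3. S100A13 stood at 16.8, 17.03 and 16.5 TPM (261 in replicate 3) and RPS27A, a ubiquitin fusion, at 358, 389.9 and 376 TPM (4885 in replicate 3). The others were TMEM256, NDUFC2, ATP5ME, POLR2I, COX6C, DPM3 and COMMD6. At the other end, ULBP3, a ligand of an activating receptor of natural killer cells, stood at 12.6, 14.9 and 10.03 TPM, with 0 TPM in replicate 3. PCBP1, an abundant RNA-binding protein, stood at 556, 449 and 462 TPM, with 4.93 TPM in replicate 3, and CAP1, which binds actin, at 306, 303 and 296 TPM, with 3.31 TPM in replicate 3. DAGLA, CEP295, NNAT, SERF1B, TSTD2, INSYN2B and ZNF384 completed the lowest 10.

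Within replicates 1, 2 and 4 the 8947 coding genes from 10 TPM had a median coefficient of variation of 5.33%, and 9 in 10 were at or under 11.3%. The 10 that varied most included several with near-identical copies elsewhere, so that the split of reads between copies is uncertain. These were XAGE1B and XAGE1A, SERF1B at 18.3, 13.9 and 4.98 TPM (0.105 in replicate 3), EIF3CL at 47.9, 119 and 59.3 TPM (16.4 in replicate 3), NOMO3 at 13.6, 11.4 and 19.7 TPM (1.14 in replicate 3) and SMN2 at 10.6, 14.3 and 18.4 TPM (50.6 in replicate 3). The others were HIST1H3C at 14.4, 10.1 and 5.89 TPM (14.8 in replicate 3), MRPL23 at 21.8, 12.9 and 12.1 TPM (157 in replicate 3), MGAT2 at 15.6, 8.33 and 12.1 TPM (0.178 in replicate 3) and PDCD2L at 9.94, 8.84 and 14.3 TPM (54.5 in replicate 3).

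All 20 reference genes were at or above 10 TPM. TBP, the TATA-binding protein, stood at 45.04, 42.8 and 46.6 TPM (14.1 in replicate 3) and B2M, the light chain of MHC class I, at 340.4, 361 and 379 TPM (497 in replicate 3). TUBA1B, an alpha tubulin, stood at 649, 631 and 611 TPM (10.2 in replicate 3), the widest gap of the list between replicate 3 and the rest. Other low members were GUSB at 82.1 TPM (51.9 in replicate 3) and SDHA at 94.3 TPM (104 in replicate 3).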

How the data were processed

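RNA-seq of the 4 vehicle libraries was used. Alignment with HISAT2 2.0.5 and counting with featureCounts 1.5.0-p3 are named in the submitters' processing notes. These notes list a mouse build, but all 18059 genes of the tables have the position that GENCODE v29 gives on human GRCh38. The authors deposited a table of read counts and a table of FPKM values, with 16383 genes each and 14707 in both. The deposited FPKM values were rebuilt from the counts, the gene length listed in the tables and 1 total per library, and values of genes with FPKM only came back as whole reads (within 0.01, 100.0%).

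Here FPKM was rescaled to TPM per library over the 18059 genes. Because lengths are of merged exon models, genes with long, little used exons are understated. Names were restored by identifier for 24 genes. Means are over replicates 1, 2 and 4. No groups were tested against each other, since 1 group is described. Replicate 3 was compared by fold (log2 of TPM + 0.1, genes with a mean of at least 1 TPM), and libraries standing apart were marked by Dixon's limit, which restates what was known of replicate 3. Genes named are the 20 highest coding, all mitochondrial coding, the leading mitochondrial non-coding and the 10 highest nuclear non-coding ones, the highest, lowest and key members of each list, the 10 highest transcription factors, and extremes of ratio and variation. The members and lists were chosen with earlier results of these data known, as were the promoter stretch and motif. Alternatives included edgeR 4.0.16 TMM factors and DESeq2 1.42.0 size factors, other thresholds, pseudocounts, lengths and replicates left out. R 4.3.3, Python 3.11.15 and pandas 2.3.3 were used. Promoters are from RefSeq, matched by Entrez identifier or symbol. Some members of the lists are counted but not reported here by name.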

Additional observations from a re-analysis of the deposited data

Results flagged for a closer look

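36 measures were checked for 1 library standing far from the other 3, by the gap to its nearest neighbour over the whole range. Dixon's 95% limit for 4 samples was passed by 20, where chance alone would flag about 1 in 20, and in 19 of them the library was replicate 3. The measures overlap and were chosen with the composition of replicate 3 already known, so these counts describe that library again and are no further support.
Of the library measures, the total behind the FPKM values gave 0.928, lowest in replicate 3. Coding genes at or above 1 TPM gave 0.961 and genes of the count table without a count 0.989, 465 in replicate 3 against 4 to 9.

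Summed TPM of a list was lowest in replicate 3 for basal genes (0.947), receptor tyrosine kinases (0.844), nuclear receptors (0.832), cytokine receptors (0.925), RNA sensing (0.964), inflammasome genes (0.937), proliferation (0.87), fibroblast markers (0.848) and melanocyte and neural markers (0.91). It was highest there for mesenchymal genes (0.935), cancer-testis genes (0.849) and long non-coding RNAs (0.936). The mesenchymal sum was 13826 TPM in replicate 3, of which S100A4 gave 7931 TPM, against 9696 to 9963 TPM in the others. On the TPM scale 1 of its 21 genes was at least 2-fold higher and 15 lower, beside 9.57% and 55.9% of all genes. After TMM scaling 5 were higher and 7 lower, beside 24.4% and 27.0% of all genes. Leukocyte markers were the exception to replicate 3: replicate 1 was highest (0.845), mostly through CD14 at 35.98 TPM. These sums are on the TPM scale. Read by gene, proliferation had 2 higher and 14 lower of 28 on the TPM scale, and 10 and 8 after TMM scaling. Inflammasome genes had 1 higher and 11 lower of 18 on the TPM scale, and 4 and 3 after TMM scaling, melanocyte and neural markers 1 higher and 3 lower of 5 on the TPM scale, and 2 and 0 after TMM scaling, and RNA sensing 0 higher and 14 lower of 22 on the TPM scale, and 1 and 7 after TMM scaling.

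Of the key genes, EGFR (0.903), CDH1 (0.851) and PSMD3 (0.876) were lowest in replicate 3 and VIM (0.917) highest.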

How the results depend on the processing

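The number of coding genes at or above 1 TPM in each of replicates 1, 2 and 4 was 12014, and 10458 at 1 FPKM, 12216 with TPM over nuclear coding genes, 10856 over all 4 libraries and 12074 to 12090 as replicates were left out. Other thresholds gave 13107 genes at 0.1 TPM, 8765 at 10 TPM and 12561 at 10 counts. The 100 highest genes held 30.6% of TPM, 16.9% of counts and 18.9% when only nuclear coding genes were taken, with 29.9 to 31.2% as single replicates were left out. Mitochondrial mRNA held 3.23% of counts, 13.8% of TPM and 2.66% of counts over all 4 libraries, with 3.03 to 3.39% as replicates were left out. Genes at least 2-fold higher in replicate 3 numbered 1568, and 4002 with TMM factors, 4091 with DESeq2 size factors, 3940 by FPKM, 985 among genes from 10 TPM and 1581 to 1585 as replicates were left out. Those lower numbered 9163, and in the same order 4422, 4321, 4604, 4907 and 9082 to 9179.

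On the scale of deposited FPKM, 19 of 23 lists had another number of members at or above 1, by at most 6. With median GENCODE transcript lengths, an alternative chosen after seeing the data, 12 of the 20 highest coding genes remained, VIM stood at 719 TPM and CGAS at 49.2 TPM. Precision is least for the lowest genes, as the coefficients of variation by class show. No paired analysis was possible because 1 group is described and no groups were tested.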

Other observations

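Of 56 cytochrome P450 genes 20 had a value, against 65.9% of all nuclear coding genes, and CYP1B1, which oxidises oestrogens and polycyclic hydrocarbons, had the highest mean, 95.9 TPM. Of 19 UDP glucuronosyltransferases only UGT2B7 had one. Of 374 solute carriers 240 (64.2%) had a value, near that share. The mitochondrial ADP/ATP carrier SLC25A5 had the highest mean, 745 TPM. Of 48 nuclear genes of complex I 46 had a value, with a median of 50.2 TPM.

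RN7SL2, the RNA of the signal recognition particle, stood at 169, 677 and 156 TPM (196 in replicate 3), so that replicate 2 lay apart from the others. RN7SL2 has near-identical copies, and its value is uncertain.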
